A study of Mus musculus with 24 samples.

Results

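Small nucleolar RNAs (snoRNAs) and small Cajal body RNAs (scaRNAs) were followed through the aortas of mice that had received angiotensin II (Ang II) or a sham infusion. Members were selected on their measured level: a gene was taken when its biotype in the authors' deposited 6-month table was snoRNA or scaRNA and its mean count over the 8 libraries at 6 months was at least 50. This gave 33 members, 24 of them of biotype snoRNA and 9 of biotype scaRNA, out of 151 such genes in that table, 510 in the count table and 37606 genes in all. By name, 2 were Snord (box C/D), 6 Snora (box H/ACA), 3 Scarna and 22 carried only a predicted-gene name (Gm). Because the rule used the level at 6 months, that level and its contrast with earlier times are given as a description, without a test. The rule used the mean over both treatments and not the difference between them.

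The 24 libraries came from total RNA of aortic homogenates of WT mice, whose implanted osmotic pump released either Ang II, the hormone that raises blood pressure, or vehicle (sham) over 2 weeks. The harvest came 2, 4 or 6 months after that, giving 6 groups (sham and Ang II at each time) of 4 libraries each. No label gives the strain, sex or age of the mice, or says whether the 4 libraries of a group were separate animals, so a p-value reflects the spread among libraries, which may be technical. A homogenate mixes all cells of the vessel wall and what adheres to it, and fewer cells of a type cannot be told apart from less RNA per cell.

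Box C/D RNAs bind fibrillarin and guide the methylation of ribose in ribosomal RNA. Box H/ACA RNAs bind dyskerin and guide the change of uridine to pseudouridine. ScaRNAs carry the same boxes and guide these marks on the spliceosomal RNAs, in the Cajal bodies of the nucleus. In mammals most of these RNAs are cut from introns of other genes, and they have no poly(A) tail, so libraries made from polyadenylated RNA hold few of them.

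The sequences below are those of the 3 intronic members with the highest level per length, of Gm26448, the highest H/ACA-type member per length, and of pairs of members that resemble each other. They are the GENCODE M21 transcripts of build mm10, written 5′ to 3′ as DNA. In the first 3 the capitals mark a C box (TGATGA within the first 20 bases) and a D box (CTGA within the last 20 bases), and in the others an ACA placed 2 to 4 bases before the 3′ end.

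Gm25395 (chr1:87776938-87777209, plus strand) and Scarna6 (chr1:87784556-87784820, plus strand), a guide for the U5 spliceosomal RNA, lie in introns of the same gene, the autophagy gene Atg16l1, and are 61.4% identical. Snord17 (chr2:144265979-144266216, minus strand) lies in an intron of Snx5, a sorting nexin gene. Gm25395 and Scarna6 begin and end alike in the sequences below, and Snord17 shares the marked boxes with them.
Gm25395: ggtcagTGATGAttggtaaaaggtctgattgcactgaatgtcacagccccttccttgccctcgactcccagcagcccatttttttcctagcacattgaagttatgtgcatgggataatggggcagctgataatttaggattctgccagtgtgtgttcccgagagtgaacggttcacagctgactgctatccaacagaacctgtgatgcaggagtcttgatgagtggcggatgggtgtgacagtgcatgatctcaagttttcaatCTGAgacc
Scarna6: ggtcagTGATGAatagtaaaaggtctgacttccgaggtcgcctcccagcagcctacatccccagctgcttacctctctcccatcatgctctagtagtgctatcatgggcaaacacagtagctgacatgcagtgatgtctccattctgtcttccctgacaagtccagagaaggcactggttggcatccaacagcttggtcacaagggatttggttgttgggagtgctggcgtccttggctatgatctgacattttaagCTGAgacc
Snord17: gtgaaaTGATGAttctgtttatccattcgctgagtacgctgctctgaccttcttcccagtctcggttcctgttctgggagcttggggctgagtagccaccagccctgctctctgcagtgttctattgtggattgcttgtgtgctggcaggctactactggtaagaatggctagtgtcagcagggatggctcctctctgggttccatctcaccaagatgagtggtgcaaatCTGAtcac

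Gm26448 (chr9:120129351-120129553, plus strand) lies in an intron of Rpsa, which encodes a protein of the small ribosomal subunit. Its nearest annotated relative is Snora73a, an H/ACA RNA known for ribosomal RNA processing, at 88.3% identity.
Gm26448: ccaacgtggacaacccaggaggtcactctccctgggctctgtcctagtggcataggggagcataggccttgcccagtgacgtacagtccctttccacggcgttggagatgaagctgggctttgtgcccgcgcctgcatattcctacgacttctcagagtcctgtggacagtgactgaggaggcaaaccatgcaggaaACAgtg

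Gm25291 (chr11:51737779-51737922, minus strand, intron of Sec24a) and Gm25117 (chr10:111481493-111481636, plus strand, intron of Nap1l1) differ at 11 positions of an alignment and are 92.4% identical. They are shown because both had their highest value in the same library.
Gm25291: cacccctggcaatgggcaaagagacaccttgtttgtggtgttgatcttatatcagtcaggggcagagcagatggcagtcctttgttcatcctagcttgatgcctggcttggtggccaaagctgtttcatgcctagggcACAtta
Gm25117: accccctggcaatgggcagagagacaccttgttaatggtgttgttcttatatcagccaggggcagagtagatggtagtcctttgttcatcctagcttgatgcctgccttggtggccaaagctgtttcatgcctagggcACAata

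Gm25788 (chr4:123291344-123291474, plus strand) and Gm22154 (chr4:123293152-123293282, plus strand) lie in introns of the poly(A)-binding protein gene Pabpc4 and differ at 4 positions, 96.9% identity. How the authors' counting placed reads that fit both is not given in the sources used here.
Gm25788: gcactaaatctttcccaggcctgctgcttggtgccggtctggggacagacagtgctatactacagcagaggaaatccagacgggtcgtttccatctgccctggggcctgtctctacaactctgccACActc
Gm22154: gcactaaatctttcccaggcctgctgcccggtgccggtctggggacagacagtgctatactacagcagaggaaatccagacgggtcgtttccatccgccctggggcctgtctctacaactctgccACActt

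Such close copies were common. Of the 33 members, 13 had another annotated snoRNA or scaRNA at 90% identity or more, so their counts may be shared with, or taken from, a copy. Among them were Snora21 (97.8% identical to Gm23795), Snora57 (95.9% to Gm26132) and Snora17 (91.7% to Gm25617). Scarna2, Scarna6, Snord17 and Gm25395 had no copy at that threshold. Snora23, Snora57 and Snora78 lie opposite a gene on the other strand (1600010M07Rik, Lbhd1 and Rps2), and whether the counting used strand is not given either.

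The boxes matched the names of the Snord and Snora members. Snord17 and Snord15a held both a C and a D box, and the 6 Snora members (Snora17, Snora21, Snora23, Snora31, Snora57 and Snora78) ended in ACA. Among the 22 Gm members, 3 held C and D boxes (Gm25395, Gm22009 and Gm25835) and 17 ended in ACA. In all, 6 members held C and D boxes, 24 the ACA, and 3 neither pair (Scarna2, Gm24336 and Gm23119). Over 1557 annotated snoRNA and scaRNA transcripts, searched in the same windows on the RNA strand, 20.1% held both C and D boxes and 44.3% the ACA. The looser H box pattern ANANNA, searched over the whole transcript, was in all 33 members and in 91.8% of the 1557, so it separated nothing. A match is only a run of letters, and a missing one says nothing about the RNA's partners.

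The depth of the libraries was 19.16 to 58.68 (in units of 1e6 counts). Libraries at 6 months differed in kind from the other 16: genes of chromosome M took 31.75% to 59.31% of their counts, against 7.72% to 16.32% before. The members took 0.0297% to 0.0642% of the counts at 6 months (11183 to 29152 counts), and 0.000438% to 0.000769% at 2 and 4 months (95 to 228 counts). All 33 were detected in each library at 6 months, and 14 to 23 of them in a library at 2 or 4 months.

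Length went with membership. The 8 listed genes longer than 200 bases were all members, against 25 of 143 listed genes of up to 200 bases. The shortest member had 127 bases. This cut was read from the members, so it holds by definition that the 45 shorter listed genes include no member. The median mean count of listed genes was 7.875 up to 100 bases and 7.875 from there to 126 bases. It was 8.625 from 127 to 200 bases and 1954 over 200 bases. The 6-month table is itself a selection: of the count table, 8 of 15 genes over 200 bases (53.3%) and 25 of 294 between 127 and 200 bases (8.5%) were members. Most box C/D RNAs are shorter than 127 bases. Of the listed genes, 2 of 19 Snord, 6 of 13 Snora and 3 of 5 Scarna genes were members. The median length of annotated Snord transcripts was 84.0 bases and that of Snora transcripts 132.5 bases. Spearman's rho between length and mean count was 0.325 across the 151 listed genes and 0.716 across the 33 members. Both are a description across genes that share the same 8 libraries. The members were selected on that same count, so these values are not compared with each other. The count was not divided by length, and the part of length itself in the count was not tested. Silica column kits such as the RNA kit named in the labels hold short RNA poorly, and the part of the kit in this pattern was not tested. Just below the threshold were Snord104 (mean count 43.25), Snord13 (44.75) and Gm23245 (46.875), and just above it Gm22767 (57.625), Gm25394 (59.25) and Gm23297 (62.75). Well-known box C/D RNAs outside it were Snord118 (mean count 16.75), the U8 RNA of ribosome maturation, and the ribosomal-protein-gene RNAs Snord32a (2.875), Snord34 (1.25) and Snord35a (3.375). Terc, the H/ACA RNA of telomerase, had a mean count of 60.5 and was left out by its biotype, misc_RNA.

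**Figure D1:**
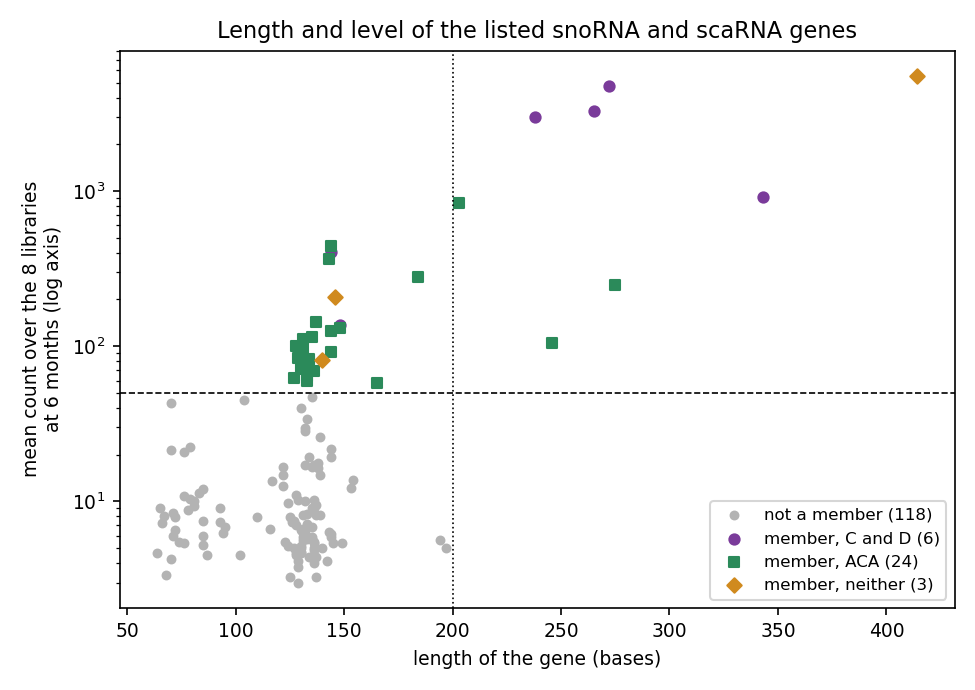
Length in bases against the mean count over the 8 libraries at 6 months (log axis) for the 151 listed snoRNA and scaRNA genes, with the 33 members coloured by the boxes found. The dashed line is the threshold of 50 and the dotted line 200 bases; all 8 genes to the right of the dotted line lie above the threshold.

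At 6 months 4 members stood above the rest. Levels are counts per 1e6 counts of a library's scaled total (CPM), given for sham replicates 1 to 4 and then for Ang II replicates 1 to 4. Gm25395 had 198, 89.9, 126 and 101 CPM in sham and 65.0, 68.5, 75.8 and 61.9 CPM in Ang II aortas. Scarna2, a guide RNA for the U2 spliceosomal RNA that is transcribed from a gene of its own, had 151, 105, 111 and 81.0 CPM in sham and 75.3, 87.6, 160 and 192 CPM in Ang II aortas. The sham values of Gm25395 all lay above its Ang II values, while those of Scarna2 lay within the range of its Ang II values.

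Snord17 had 101, 74.9, 66.9 and 45.7 CPM in sham and 63.3, 46.8, 45.6 and 65.2 CPM in Ang II aortas. Scarna6 had 134, 44.3, 85.9 and 74.2 CPM in sham and 53.6, 45.0, 64.4 and 39.4 CPM in Ang II aortas. In both, sham replicate 1 was the highest library and the groups overlapped. Per length, the order was Gm25395 (mean 362 CPM per kilobase), Scarna2 (291), Snord17 (267) and Scarna6 (255), and the values of neighbours in this order overlapped widely between libraries. The next member, Gm26448, had 90.2 CPM per kilobase, and the lowest, Gm22767, had 7.32.

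The other members in which both C and D boxes were found were lower. Gm22009, a 343-base scaRNA in an intron of the importin gene Kpna4, had 17.4, 11.5, 16.5 and 18.4 CPM in sham and 19.5, 15.4, 21.4 and 51.3 CPM in Ang II aortas. Its last library stood apart from the 7 others. Gm25835, in an intron of the translation initiation gene Eif4a1, averaged 63.2 CPM per kilobase, and Snord15a, in an intron of the ribosomal protein gene Rps3 and a guide for the large ribosomal RNA, 21.8. The 6 members in which the search found C and D boxes together took 40.58% to 64.18% of the members' summed CPM in a library at 6 months. The 3 with neither pair found, Scarna2 among them, took 20.51% to 34.65%, so these are shares by motif match.

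The 24 members that end in ACA together took 13.26% to 25.44% of it. After Gm26448, with 34.4, 16.4, 25.5 and 10.3 CPM in sham and 5.49, 8.11, 23.7 and 22.6 CPM in Ang II aortas, the highest per length were Gm22442 (64.6 CPM per kilobase) in the chromatin remodeller gene Chd3 and Gm25776 (56.4) in the transcription factor gene Gtf2a1. Next came Snora23, in the importin gene Ipo7 and the highest Snora member, with 33.1 CPM per kilobase, then Gm25291 (26.8), Scarna13 (23.6), Snora21 (22.6) and Gm25117 (20.5). The other named ones were Snora57 (18.7), Snora78 (18.0), Snora31 (12.2) and Snora17 (11.3). In CPM the means of Gm25291 and Gm25117 rested mostly on Ang II replicate 4, in which they had 18.1 and 15.4 CPM. Scarna13 was also highest there, at 22.9 CPM against at most 7.28 in the other libraries.

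**Figure D2:**
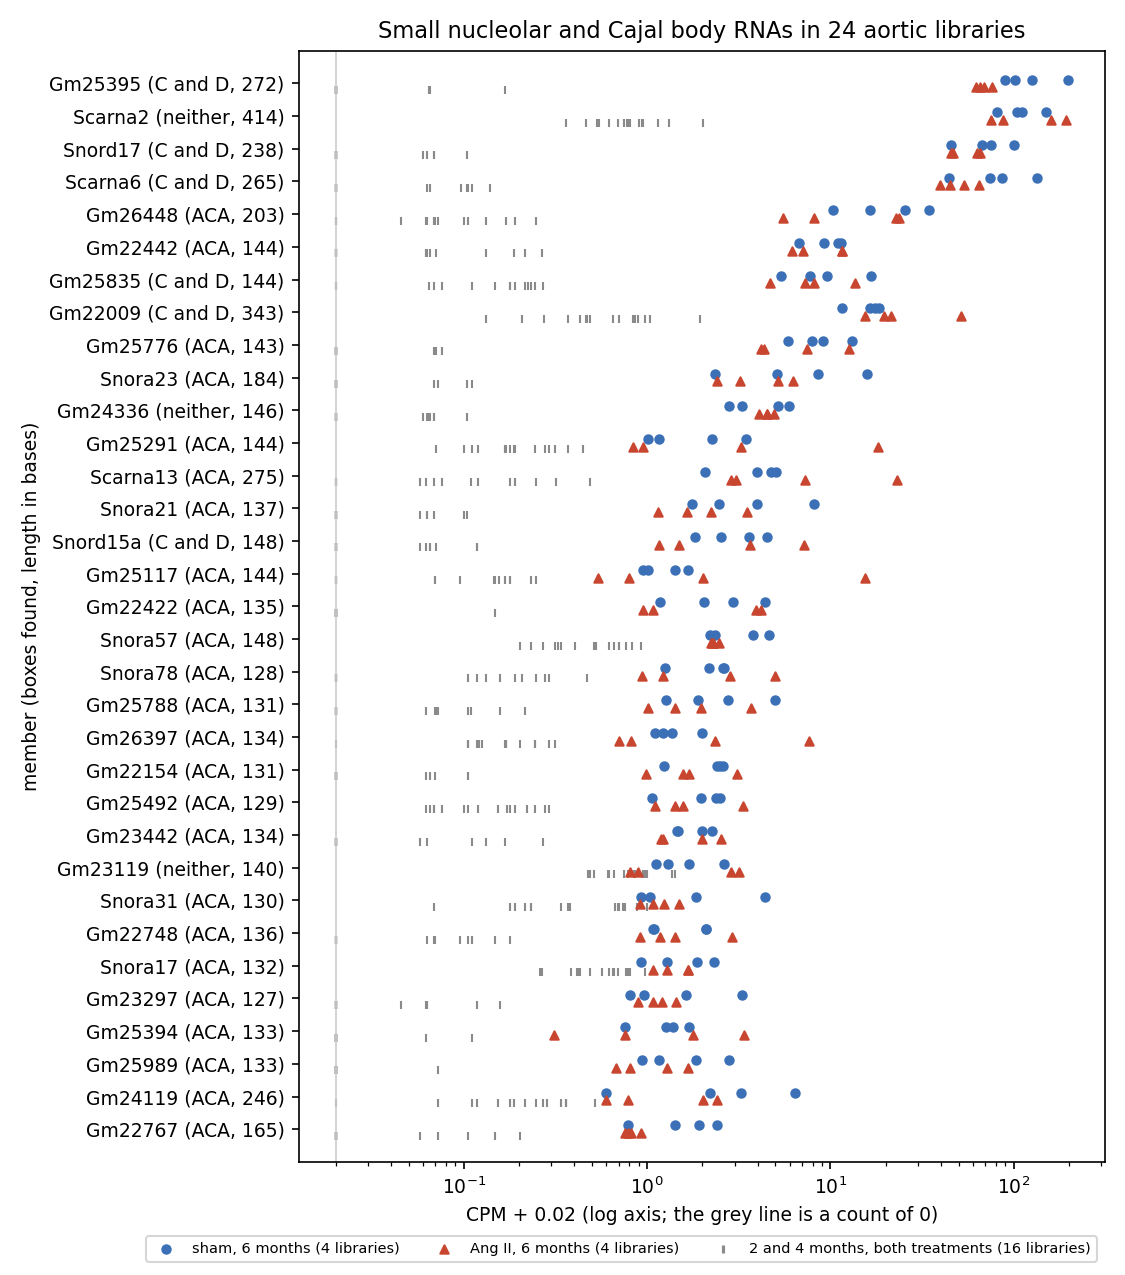
CPM plus an offset of 0.02 (log axis) of the 33 members in the 24 libraries, sorted by mean CPM per kilobase at 6 months. Blue points are sham and red triangles Ang II libraries at 6 months, and grey ticks are the 16 libraries at 2 and 4 months, which lie to the left of the coloured points for nearly every member.

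The coefficient of variation of the CPM over the 8 libraries at 6 months had a median of 52.8% over the 33 members. The most variable were Gm25117 (171%), Gm25291 (151%) and Gm26397 (108%), and the least Gm24336 (23.1%), Gm22442 (25.1%) and Gm23442 (28.7%). In CPM sham replicate 1 was the highest library for 18 members, Ang II replicate 4 for 14 and Ang II replicate 3 for 1. These CPM rest on the TMM scaling, which set the total of Ang II replicate 4 at 19.03 where 37.64 (in units of 1e6 counts) were counted. Per 1e6 counts of the unscaled total, a setting chosen after the data were seen, Ang II replicate 4 was the highest library for 5 members and the lowest for 16, and sham replicate 1 was the highest for 13. The members' share of all counts was lowest in Ang II replicate 4 (0.0297%) and highest in sham replicate 1 (0.0642%). Sham replicate 1 and Ang II replicate 4 were also the libraries with the largest shares of chromosome M, 59.31% and 52.86%. The part of that share in the members' values was not tested.

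Earlier aortas held much less of nearly every member, with another order. The members' summed CPM had a median of 445.4 at 6 months and of 5.26 over the 16 libraries at 2 and 4 months, a ratio of 84.7. With totals free of chromosome M and rRNA genes, a setting chosen after the data were seen, the ratio was 143 (7.16 on the log2 scale, against 6.40). CPM were scaled within each time, so this ratio also carries the difference in library kind, and time cannot be told apart from it. Gm25395 had 5 counts in all 16 earlier libraries together, Snord17 had 6 and Scarna6 had 14, against mean counts of 4744, 2989.5 and 3286 in a library at 6 months. Rn7sk, the 7SK RNA that also lacks a poly(A) tail, had a median of 2948 CPM at 6 months and 2.96 CPM before.

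The leading members at 2 and 4 months were Gm23119 (5.74 CPM per kilobase), Snora17 (4.20), Snora31 (3.52), Snora57 (3.38) and Scarna2 (2.00). Of these, Gm23119, Snora17, Snora57 and Scarna2 are the 4 members for which the search of GENCODE M21 found no host gene on their strand. A host transcript missing from that search would give the same result. Mean CPM at 6 months was 2.23 (Gm23119), 2.69 (Snora17), 5.51 (Snora57) and 145 (Scarna2) times the earlier mean, and that of Snora31 was 3.47 times. Members that ended in ACA gave 34.86% to 65.83% of the summed CPM in an earlier library. Those in which C and D boxes were found gave 3.06% to 27.52%, and those with neither, Scarna2 among them, 16.24% to 48.18%.

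**Figure D3:**
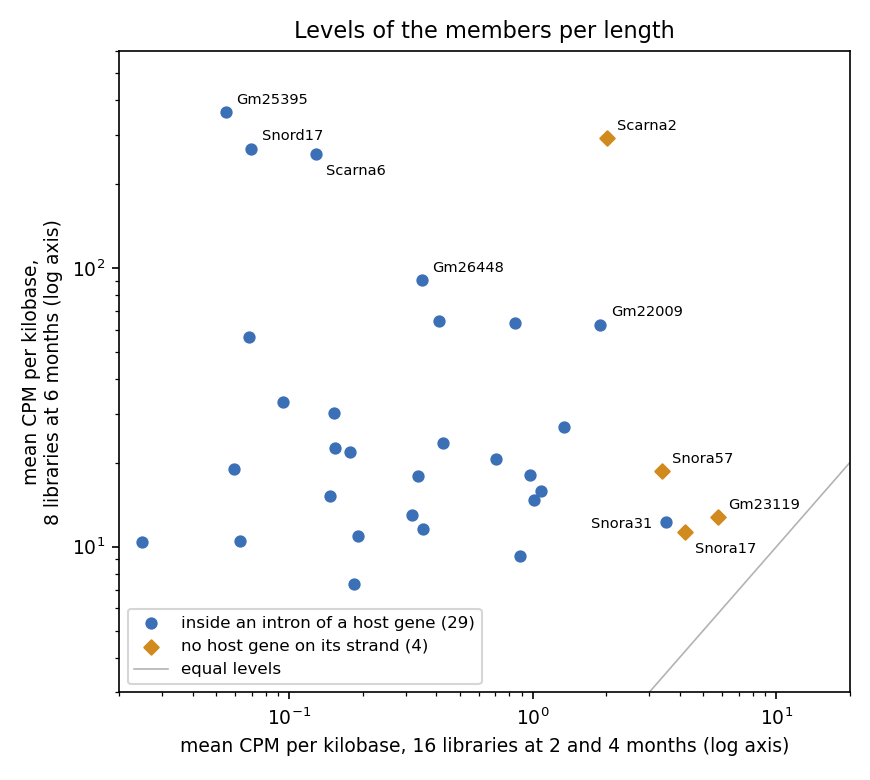
Mean CPM per kilobase of each member over the 16 libraries at 2 and 4 months (horizontal, log axis) and the 8 libraries at 6 months (vertical, log axis). All 33 points lie above the line of equal levels, and the points nearest to it are Gm23119, Snora17, Snora31 and Snora57.

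The 29 members inside introns had 27 host genes, on the same strand and with no exon in common. At 6 months the level per kilobase of the member was above that of its host's exons in 20 of 29 pairs, with a median ratio of 2.41. The ratio was 162 for Gm25395 and 114 for Scarna6 against their host Atg16l1, 25.3 for Snord17 against Snx5, and 0.0643 for Snora31 against Tpt1, the gene of the translationally controlled tumour protein. At 2 and 4 months it was above the host in 0 of 29 pairs, with a median ratio of 0.0111. Hosts varied less: their coefficient of variation at 6 months had a median of 14.4%, and the member varied more than its host in 28 of 29 pairs, the exception being Snora78 in the host transcript Snhg9, which had at most 0.0620 CPM.

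Whether a past Ang II infusion left a difference in these RNAs was asked first at 6 months, where all 33 members passed the filter on low counts. No member was called by edgeR's quasi-likelihood test at an adjusted p of 0.05, as was true of all 19343 genes tested (0%). At an unadjusted p under 0.05 there were 3 of 33 members (9.09%), against 976 of 19343 genes (5.05%). DESeq2 called 63 of 35794 genes (0.176%) and no member, and 68 of 22783 genes and 0 members of the authors' deposited table had an adjusted p under 0.05. The members' log2 fold change (Ang II minus sham) was below 0 for 22 and above 0 for 11, with a median of -0.15, and over all genes the median was -0.03. That median ran from -0.43 without Ang II replicate 4 to 0.02 without Ang II replicate 2 when single libraries were left out.

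Gm25395 was the single member whose groups did not overlap (1 of 33, 3.03%, against 3.12% of all genes, and 1.72% with Ang II lower). Its mean was 129 ± 48.5 CPM in sham and 67.8 ± 5.96 CPM in Ang II aortas (SD, n = 4 each). The log2 fold change was -0.93 (SE 0.24), with an unadjusted p of 0.0037 and an adjusted p of 0.922 in edgeR. It stayed below 0 in each left-out-library fit, between -1.07 and -0.65, and was -0.59 with sham replicate 1 and Ang II replicate 4 both left out. Per 1e6 counts of the unscaled total the groups did not overlap for 2 members, Gm25395 and Snora57. The share over all genes was computed with TMM only, so this count is not read further. In the authors' deposited DESeq2 table the adjusted p of Gm25395 was 0.0746. Scarna6, from the same host, had 84.7 ± 37.5 CPM in sham and 50.6 ± 10.9 CPM in Ang II aortas, with a log2 fold change of -0.74 (SE 0.31, edgeR adjusted p 0.939), while Atg16l1 itself had -0.03.

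Gm22767 was the third member with an unadjusted edgeR p under 0.05. It had 2.39, 1.40, 1.90 and 0.769 CPM in sham and 0.793, 0.766, 0.901 and 0.736 CPM in Ang II aortas, and sham replicate 4 lay within the Ang II range. Its log2 fold change was -1.0 (SE 0.34, edgeR adjusted p 0.922). Snora57 (-0.49) and Snora21 (-0.94) had the next smallest p among negative values. Of the Snora members, 5 of 6 had a log2 fold change below 0 and 1 above (Snora78, 0.19), and none was called.

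The members with the largest positive values rested on Ang II replicate 4. Gm25117 had 1.65, 0.925, 1.41 and 0.995 CPM in sham and 0.773, 0.517, 2.00 and 15.4 CPM in Ang II aortas, a log2 fold change of 1.89 (SE 0.99), which was -0.14 without that library. Its relative Gm25291 had 3.42, 0.994, 2.25 and 1.15 CPM in sham and 0.813, 0.931, 3.23 and 18.1 CPM in Ang II aortas, a log2 fold change of 1.54 (SE 0.97), and -0.20 without it. Scarna13, an H/ACA scaRNA in the host transcript Snhg10, had 4.72, 2.04, 5.04 and 3.95 CPM in sham and 3.03, 2.86, 7.28 and 22.9 CPM in Ang II aortas. Its log2 fold change of 1.18 (SE 0.66) came to 0.18 without that library. Gm26397 (1.0) turned to -0.11, and Gm22009 (0.75) came to 0.25. With library totals in place of TMM these values were 1.1 (Gm25117), 0.87 (Gm25291), 0.63 (Scarna13), 0.41 (Gm26397) and 0.35 (Gm22009). With the replicate number as a block they were 0.49 (Gm25117), 0.47 (Gm25291), 0.71 (Scarna13), 0.34 (Gm26397) and 0.61 (Gm22009). None was called, and 26 of the 27 host genes could be tested: their log2 fold changes lay between -0.27 and 0.27, with none called.

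**Figure D4:**
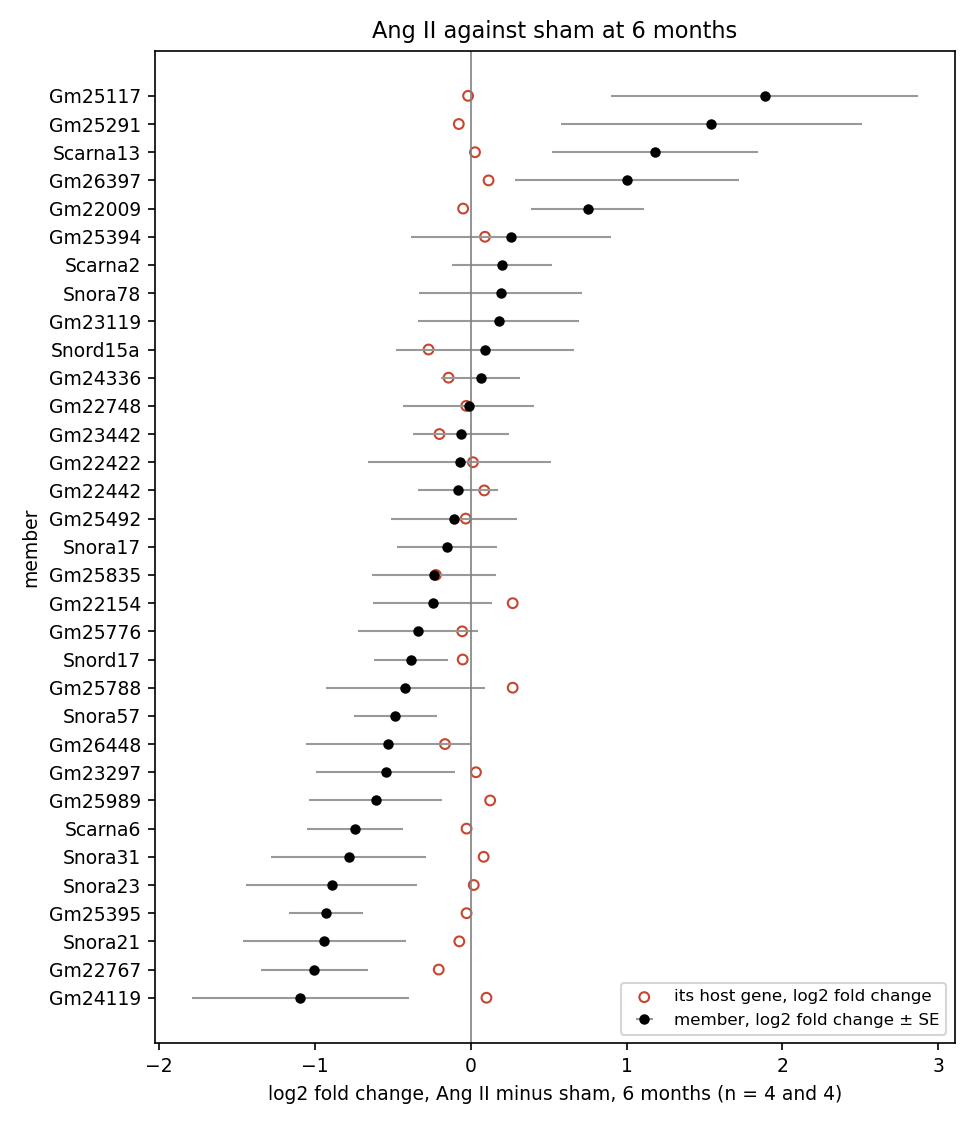
Log2 fold change, Ang II minus sham at 6 months, of the 33 members (black, with SE, n = 4 and 4) and of their host genes where tested (red circles). Hosts lie between -0.27 and 0.27, and members between -1.09 and 1.89.

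**Figure D5:**
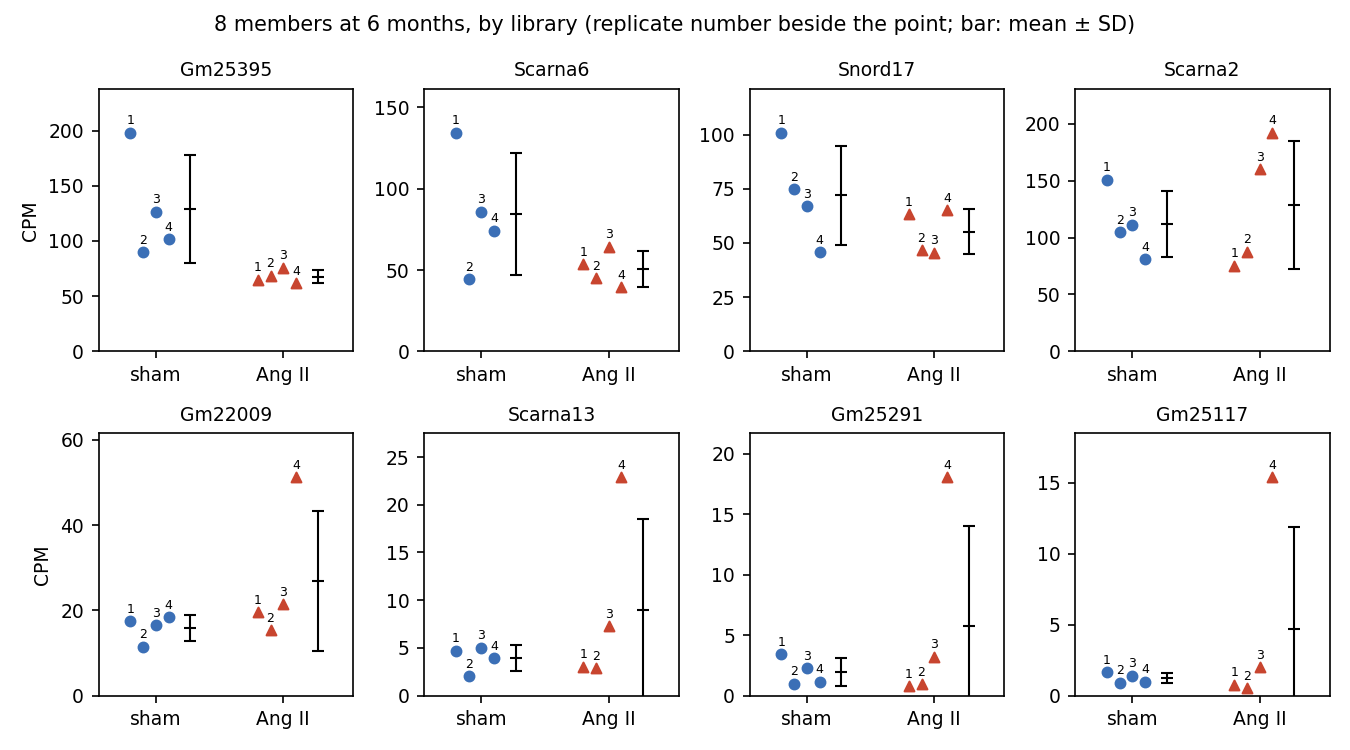
CPM of 8 members in the 8 libraries at 6 months, with replicate numbers and, in black, the group mean and SD (a bar that would reach below 0 is cut at the axis). In the lower panels Ang II replicate 4 is the highest point, and in Gm25395 and Scarna6 sham replicate 1 is.

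At 2 months 6 members passed the filter and none was called, against 297 of 16421 genes (1.81%). Snora31, in an intron of Tpt1, had 0.212, 0.171, 0.213 and 0.650 CPM in sham and 0.976, 0.686, 0.735 and 0.723 CPM in Ang II aortas, so the groups did not overlap, as for 7.83% of all genes. Sham replicate 4 was close to the Ang II libraries. The log2 fold change was 1.33 (SE 0.45, unadjusted p 0.0165, edgeR adjusted p 0.279), and without the filter on low counts the edgeR adjusted p was 0.570. Sham libraries held 5, 4, 5 and 13 of its reads and Ang II libraries 26, 27, 14 and 17. The Ang II libraries alone were enough for it to pass the filter, so its values at 2 months are not read as a difference. This holds also for the fit without sham replicate 4, where its log2 fold change was 1.95, with an edgeR adjusted p of 0.0433. At 6 months its log2 fold change was -0.78 (SE 0.50). The other 5 lay between 0.09 (Snora17) and 0.48 (Gm23119).

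At 4 months 2 members passed and none was called, against 114 of 16127 genes (0.707%). Scarna2 had 2.00, 1.12, 1.30 and 0.757 CPM in sham and 0.442, 0.672, 0.727 and 0.882 CPM in Ang II aortas, which overlap at sham replicate 4. Its log2 fold change was -0.92 (SE 0.36, edgeR adjusted p 0.271), against 0.34 at 2 months and 0.20 at 6 months. Gm23119 had a log2 fold change of -0.53 (SE 0.36, edgeR adjusted p 0.503). Between sham aortas at 4 and 2 months, 4 members passed and none was called, against 1 of 16144 genes (0.00619%). Scarna2 averaged 0.596 ± 0.248 CPM at 2 months and 1.29 ± 0.524 CPM at 4 months (SD, n = 4 each), a log2 fold change of 1.12 (SE 0.41, edgeR adjusted p 0.232). The same sham aortas enter both 4-month contrasts.

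Over all 24 libraries the treatment effect was compared between times (interaction). No member was called, against 103 of 19218 genes (0.536%). All 33 members entered this fit through their counts at 6 months, while 6 passed the filter at 2 months and 2 at 4 months. At an unadjusted p under 0.05 there were 2 members, Scarna13 and, named after its value was seen, Gm24336 (2288 of all genes, 11.9%), a count that is not read further for that reason. Scarna13 came nearest, with a p of 0.000795 and an edgeR adjusted p of 0.0854. At 2 months it had 0.169, 0.171, 0.469 and 0.300 CPM in sham and 0.0375, 0, 0 and 0.0425 CPM in Ang II aortas. These are at most 11 counts in a library, and Scarna13 did not pass the filter at that time. Its sham libraries were the higher ones at 2 months, and Ang II replicate 4 was the highest library at 6 months.

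The proteins that these RNAs work with were read from gene lists. Of the box C/D proteins Fbl (fibrillarin, the methyltransferase), Nop56, Nop58 and Snu13, 0 of 4 were called at any time, nor were any of the 4 H/ACA proteins Dkc1 (dyskerin, the pseudouridine synthase), Nop10, Nhp2 and Gar1. At 6 months Fbl had a log2 fold change of -0.05 and Dkc1 one of -0.06. None was called either among 13 assembly and transport genes, 7 Cajal body genes and 14 genes for proteins of the U3 processome, of which 12, 7 and 14 were tested at 6 months. Of 56 genes known as hosts of snoRNAs, 52 were tested at 6 months and 0 were called. The summed CPM of the C/D proteins lay at 47.0 to 59.4 at 6 months, against 149 to 200.4 at 2 and 4 months. That of the listed snoRNA host genes, without Snhg7 and Snhg16, which had no counts under these names, lay at 3616 to 5865, against 12343 to 17054. Marker sums differed between cell types. Endothelial markers summed to 378 to 676 CPM at 6 months and 659 to 1149 CPM before, and adipocyte markers to 2194 to 3048 and 10008 to 16274 CPM. Fibroblast markers (835 to 1302 CPM at 6 months, 821 to 1914 before) and macrophage markers (372 to 659, 308 to 1102 before) overlapped between times. Time cannot be told apart from library kind in any of these lists.

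Markers of the tissue moved beside these comparisons. Contractile smooth muscle genes such as Acta2 and Myh11, the defining ones of the aortic wall, fell in 7 of 8 at 2 months. Their summed CPM at that time was 3979 to 7418 in sham and 997 to 2031 in Ang II aortas. At 4 months 0 of 8 were called, but all 8 log2 fold changes were below 0 (-1.03 to -0.43). The summed CPM in sham at 4 months was 825 to 2890. Between sham aortas at 4 and 2 months the median log2 fold change was -2.03 (-2.29 to 0.44), with 0 of 8 called. At 6 months 0 of 8 were called, but all 8 log2 fold changes were above 0 (0.094 to 2.06, median 0.37), and the summed CPM of 555 to 767 in sham and 797 to 1501 in Ang II aortas did not overlap. Macrophage genes rose in 2 of 6 at 2 months and 1 of 6 at 4 months. Endothelial genes rose in 1 of 6 at 2 months, and no fibroblast, adipocyte, brown adipocyte, T cell, B cell, skeletal muscle or airway marker was called at any time. At 6 months the 4 skeletal muscle markers summed to 25.0 to 315 CPM in sham and 302 to 4265 CPM in Ang II aortas, a median log2 fold change of 3.57. The 5 airway markers summed to 38.3 to 3909 CPM in sham and 1156 to 2832 CPM in Ang II aortas at 6 months. No marker of any list was at 0 in any library at 6 months. The part of these cells in the members' values was not tested.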

How the data were processed

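Messenger RNA libraries, by the labels' library kit, were made from total RNA of 24 aortic homogenates. Per the submitters' processing notes FastQC, cutadapt, STAR, featureCounts and DESeq2 were used with build mm10; the sources used here do not give versions, annotation release, strand setting or the handling of shared reads. Whole-number read counts per gene were deposited by the authors and, for each time, tables with a log2 fold change, its error, a p-value, a fold change as a ratio, a mean signal and a test score. The shorter tables of selected genes were not used.

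Names and biotypes came from the deposited tables, and coordinates, hosts and sequences from GENCODE M21. Identities were computed with edlib 1.3.9.post1. Counts were tested in R 4.3.3 with edgeR 4.0.16: filterByExpr (minimum count 10, minimum total 15), TMM, glmQLFit and glmQLFTest, Benjamini-Hochberg over all genes, threshold 0.05, in the 8 libraries compared, or 24 for the interaction. SE is the log2 fold change over the square root of F. CPM use TMM within each time, and CPM per kilobase divide by length (exon length for hosts). The scripts were tested on simulated data.

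Other settings were DESeq2 size factors, DESeq2 1.42.0, library totals, removal of chromosome M and rRNA genes, no filter, each library left out, and replicate number as a block. Libraries of a group differed beyond sampling noise (smallest chi-square per degree of freedom 26.44). Counts of 11183 to 29152 per library at 6 months, and 95 to 228 before, set the precision. Intervals and SEs do not cover shared reads.

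Members, gene lists and tests were chosen with earlier results of these data known. The text names, per comparison, the called members or the 5 highest and 5 lowest by signed p, the most abundant by class, the extremes of variation, the leaders at 2 and 4 months, members at the threshold and a set of well-known RNAs. Gm members beyond the most abundant were named after their values were seen.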

Additional observations from a re-analysis of the deposited data

Results flagged for a closer look

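The check covered 96 groups of 4 libraries: all members at 6 months, the 6 leading ones at 2 and 4 months, and the members' sums. In 9 of them a library lay far from the other 3. The cutoff flags about 1 in 20 groups when groups are independent and normally spread. These groups share libraries, so the count of 9 is not compared with that rate. At 6 months, 3 of the 9 flags fell on Ang II replicate 4. Gm22009 had 51.3 CPM there against 15.4 to 21.4 in the others, Gm25291 18.1 against 0.813 to 3.23, and Gm25117 15.4 against 0.517 to 2.00. Per 1e6 counts of the unscaled total the same library held 25.9 (Gm22009, against 14.5 to 24.02 in the other 7 libraries), 9.14 (Gm25291) and 7.78 (Gm25117). That library had 52.86% of its counts on chromosome M and the lowest total at that time, 37.64 (in units of 1e6 counts). Gm22154 was lowest in sham replicate 4 at 6 months, at 1.22 CPM against 2.40 to 2.56.

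At 2 months Gm23119 had 1.40 CPM in Ang II replicate 4 against 0.763 to 0.840 in the others. Snora31 had 0.650 CPM in sham replicate 4 against 0.171 to 0.213, and 0.976 CPM in Ang II replicate 1 against 0.686 to 0.735. At 4 months Ang II replicate 1 was highest for Gm22009, at 0.835 CPM against 0.409 to 0.448, and lowest for Snora17, at 0.245 CPM against 0.392 to 0.409.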

How the results depend on the processing

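No member was called under any setting run, except Snora31 at 2 months without sham replicate 4, a fit it entered through the Ang II libraries alone. Counts over all genes moved more. With DESeq2 they were 691, 940 and 63 at 2, 4 and 6 months and 736 for sham at 4 against 2 months. At 4 months 8 genes were called with library totals, 233 without chromosome M and rRNA genes and 40 without the filter, and at 6 months 1 with library totals. With single libraries left out, 78 to 255 genes were called at 2 months (78 without sham replicate 1), with 0 to 1 members. At 4 months 0 to 674 were (674 without sham replicate 4), and for sham at 4 against 2 months 0 to 639 (639 without sham replicate 4 of 4 months). The cause was not tested.

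Replicate numbers are shared between groups, and no label says what a number marks. Same-numbered libraries of replicate 2 correlated at each time (0.447, 0.434 and 0.563), each best with its own number, and so did replicate 3 at 6 months (0.6). The other pairs lay between -0.449 and 0.051, and not every library correlated best with its own number, so the block is given as a setting only. With the replicate block 208, 0 and 0 genes were called at 2, 4 and 6 months, 140 for sham at 4 against 2 months and 110 for the interaction, with no member in any.

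With library totals the members' median log2 fold change at 6 months was -0.44 and that of Scarna2 turned to -0.091. Leaving out Ang II replicate 4 turned Gm26397 (-0.11), Gm25291 (-0.20), Gm25117 (-0.14) and Scarna2 (-0.034). At 2 months Snora17 turned without sham replicate 3 (-0.041), and Gm22009 without sham replicate 1 (-0.07) or Ang II replicate 4 (-0.10). Gm22009 in sham at 4 against 2 months turned without sham replicate 1 of 4 months (-0.34). Left-out ranges were -0.11 to 1.40 for Gm26397, -0.20 to 1.99 for Gm25291, -0.14 to 2.35 for Gm25117, -0.034 to 0.40 for Scarna2, -0.041 to 0.18 for Snora17, and -0.10 to 0.50 and -0.34 to 0.88 for Gm22009.

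With totals free of chromosome M and rRNA genes the members' median summed CPM at 6 months was 848.1 (445.4 as reported) and the log2 ratio to earlier times 7.16 (6.40 as reported). A minimum mean count of 20 or 200 gives 45 or 12 members. Without the filter, 32 members at 2 months and 31 at 4 months had a value and none was called by edgeR or, with every gene kept, by DESeq2.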
